A study of Mus musculus with 18 samples.

Results

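The interferon regulatory factors described here are the transcripts of Irf1, Irf2, Irf3, Irf4, Irf5, Irf7, Irf8, and Irf9, chosen by name from the 29875 genes of a count table. All 8 were listed, and all 8 were among the 13844 genes that passed the filter on low counts. The cells were dendritic cells (DCs) grown with GM-CSF from the bone marrow of C57Bl6/J wildtype mice aged 8 to 12 weeks. Lipopolysaccharide (LPS, a bacterial ligand of TLR4) was added at 200 ng/ml on day 8 of differentiation, and all 6 groups carry this treatment of 24 hours. In 4 groups, DCs migrated toward the chemokine CCL19 in bovine collagen gels of 1.7, 2.6, 3.5, or 4.4 mg/ml, and RNA was taken 5 hours after the gradient was set up. In the other 2 groups, DCs were kept in suspension in the same chambers without collagen. These groups are named here as their titles give them, plus CCL19 and without CCL19, but the library names state the opposite, so no direction is read from CCL19. Each group has 3 replicates, and the labels do not say how many mice stand behind each. Library names give one date and one lane to all libraries of a replicate number, which makes each number a batch with every group in it. GM-CSF cultures of bone marrow are mixtures, and RNA was taken from the whole gel or chamber.

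IRFs are transcription factors that share a DNA-binding domain and bind interferon-stimulated response elements (ISREs). IRF3, IRF7, and IRF5 are activated by phosphorylation downstream of Toll-like and cytosolic nucleic acid receptors, and IRF3 and IRF7 switch on interferon genes. Interferon then acts through JAK kinases and STAT proteins, and IRF9 is part of the ISGF3 complex, which raises IRF7 and many antiviral genes. IRF1 is induced by interferon-γ and NF-κB, IRF2 competes with it at shared sites, and IRF4 and IRF8 guide the development of DC subsets. Activation of IRF3, IRF5, and IRF7 occurs on the protein, which RNA levels do not measure.

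Total counts ranged from 13062944 to 28059839 per library, so that 3 counts correspond to 0.107 to 0.23 on the counts-per-million (CPM) scale, for which levels below use library sizes scaled by the TMM method. No 2 of the 153 library pairs held identical counts. The DC markers on the marker list (Itgax, Flt3, Zbtb46, class II genes, Ccr7, and others) summed to 26115 to 62950 CPM in collagen and 20478 to 58656 CPM in suspension, so markers of the labelled cell type were detected in every library. Markers of other cells were detected as well. Neutrophil markers summed to 1234 to 5479 CPM in collagen and 848 to 10318 CPM in suspension. Basophil and mast cell markers summed to 96.7 to 478 CPM in collagen and 161 to 420 CPM in suspension. Eosinophil markers summed to 14.8 to 171 CPM in collagen and 121 to 1385 CPM in suspension, and all 9 of those tested were lower in collagen with and without the replicate block described below. In bulk samples, fewer cells of a type and less RNA per cell cannot be told apart.

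RefSeq promoters (GRCm38.p6) were found for all 8 members, and 100 bases are shown for 5. Irf1, Irf2, and Irf8 are shown because they hold motifs through which interferon and NF-κB signals reach genes, and Irf3 and Irf7 because they differed most at the highest density. Capitals mark a GAS site, which STAT dimers bind (TTCNNNGAA), an ISRE core (GAAANNGAA), an ETS-IRF composite, which IRF4 and IRF8 bind with PU.1 (GGAANNGAA), or an NF-κB consensus, each searched on both strands in the 250 bases before each start. The Irf1 stretch (chr11:53769914-53770013, plus strand) ends next to the start and holds a GAS site and an NF-κB consensus. The Irf2 stretch (chr8:46739495-46739594, plus strand) begins 250 bases before the start, and its ETS-IRF composite overlaps its ISRE core, followed by a GAS site. The Irf8 stretch (chr8:120736184-120736283, plus strand) begins 174 bases before the start and holds 2 GAS sites. The stretches of Irf3 (chr7:44997548-44997647, plus strand) and Irf7 (chr7:141266425-141266524, minus strand) end next to the start and held none of the 4 motifs.
Irf1: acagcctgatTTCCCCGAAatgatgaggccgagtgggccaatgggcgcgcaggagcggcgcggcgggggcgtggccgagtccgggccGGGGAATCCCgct
Irf2: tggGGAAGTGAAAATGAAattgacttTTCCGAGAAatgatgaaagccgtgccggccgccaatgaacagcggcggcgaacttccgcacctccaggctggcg
Irf8: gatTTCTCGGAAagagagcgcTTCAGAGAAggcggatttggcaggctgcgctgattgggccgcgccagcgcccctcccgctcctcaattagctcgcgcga
Irf3: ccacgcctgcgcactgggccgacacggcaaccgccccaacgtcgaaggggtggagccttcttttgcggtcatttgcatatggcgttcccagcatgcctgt
Irf7: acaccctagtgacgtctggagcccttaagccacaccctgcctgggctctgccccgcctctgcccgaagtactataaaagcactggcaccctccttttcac
GAS sites were found before 7.02% of 32851 RefSeq starts, ISRE cores before 7.13%, ETS-IRF composites before 6.99%, and the NF-κB consensus before 7.25%, so a match describes the letters and not a site in use. Irf2 also held an NF-κB consensus outside the stretch shown, and no window of Irf4, Irf5, or Irf9 held any of these motifs. Bases further from a start were not searched, so an empty window does not show that a gene lacks the motif.

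Per kilobase of exon, Irf7 was the most abundant, with a median over the 18 libraries of 434 CPM per kb, followed by Irf8 at 266 and Irf5 at 224 CPM per kb. A gap separated these from Irf4 at 30.1, Irf9 at 25.6, Irf1 at 22.7, and Irf3 at 20.8 CPM per kb, and Irf2 was lowest at 4.25 CPM per kb. Neighbours in this order were often not separated within libraries: Irf7 lay above Irf8 in 16 of 18 libraries, Irf8 above Irf5 in 10, Irf9 above Irf1 in 12, and Irf1 above Irf3 in 11. Irf5 lay above Irf4, and Irf3 above Irf2, in 18 of 18.

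**Figure D1:**
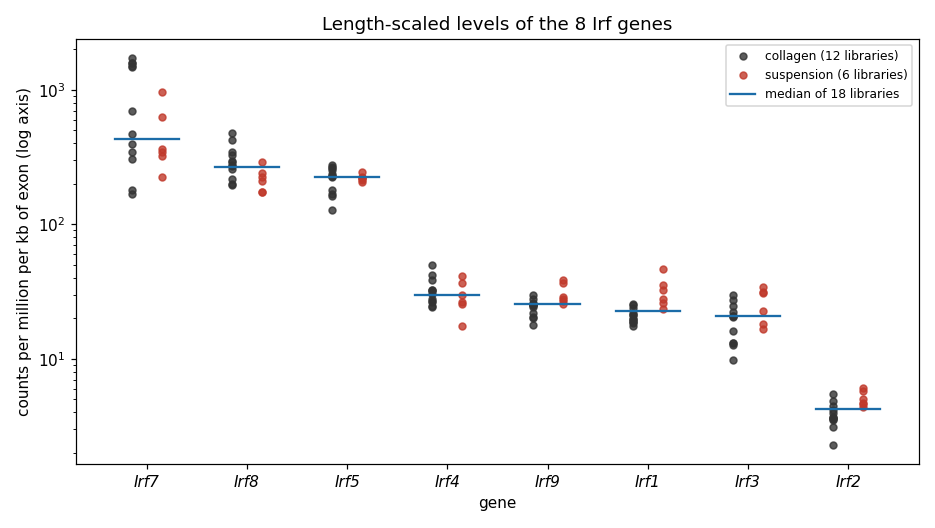
Level of each Irf gene in CPM per kb of exon (log axis), with 12 collagen libraries in black, 6 suspension libraries in red, and the median of all 18 as a line. Irf7, Irf8, and Irf5 have medians of 224 CPM per kb or more, the other 5 of 30.1 or less, and Irf7 has the widest spread.

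The first question was which members differed between collagen and suspension. Called means an adjusted p below 0.1 in edgeR's quasi-likelihood test over all 13844 genes. Without a replicate term, Irf1 and Irf3 were lower in collagen than in suspension and no member was higher, where 12.4% of all genes tested were lower and 7.78% higher. Other unblocked fits differed in their calls. With no filter Irf1 was lower and Irf7 higher, and with GC and length offsets Irf1 was lower and Irf8 higher. DESeq2, and edgeR with its size factors, called Irf1 alone, as lower. Without the replicate 2 library at 4.4 mg/ml, Irf1 and Irf3 were again called lower. Shares of all genes called were not worked out for these other fits. With the replicate number as a block, 6 members were called, with Irf1, Irf2, Irf3, and Irf9 lower and Irf7 and Irf8 higher, against 19.3% of all genes lower and 15.6% higher. Irf4 and Irf5 were called in neither fit of this comparison.

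The densities were then taken one by one against suspension. At 1.7 mg/ml no member was called in either fit, where 0.0361% of all genes were called without the block and 2.91% with it, and 1 member had an unadjusted p under 0.05 in each. At 2.6 mg/ml, edgeR called 0 members without the block (2 at an unadjusted p under 0.05) and Irf1 with it, with backgrounds of 7.87% and 21.6%, and DESeq2 without the block called 1, with a background of 13.2%. At 3.5 mg/ml, the counts were 0 without the block (1 at an unadjusted p under 0.05) and Irf1 again with it, with backgrounds of 4.9% and 18.4%, and DESeq2 called 1, with a background of 10.5%. At 4.4 mg/ml, Irf3 was called lower without the block, where 8.29% of genes were lower and 6.55% higher. With the block, Irf1, Irf2, Irf3, and Irf5 were lower and Irf7 was higher at this density, against 16.2% and 15.8% of all genes.

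Within collagen, the linear trend over the 4 densities and the ends of the series gave 0 called members without the block (2 at an unadjusted p under 0.05 in each), with a background of 0.00722% in both comparisons. DESeq2 without the block called 2 members in each, with backgrounds of 0.918% for the trend and 1.2% for the ends. With the block, Irf3 was called in both, where 1.45% of genes had a trend and 1.73% differed between 4.4 and 1.7 mg/ml. A test for any difference among the 6 groups called no member without the block (2 at an unadjusted p under 0.05, background 4.9%) and Irf1, Irf3, and Irf7 with it (24.3%), and DESeq2 without the block called 1 (14.6%). Between the suspension groups, no difference was detected for any member. Here edgeR called 0, none had an unadjusted p under 0.05, DESeq2 called 0, and 0.0% of all genes were called. Within replicates 1, 2, and 3, Irf7 was higher as titled plus CCL19, by log2 differences of 0.63, 0.63, and 0.17. For Irf3 these were 0.31, 1.05, and 0.03, and for Irf8 0.47, 0.01, and 0.09. The other members changed sign between replicates.

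**Figure D2:**
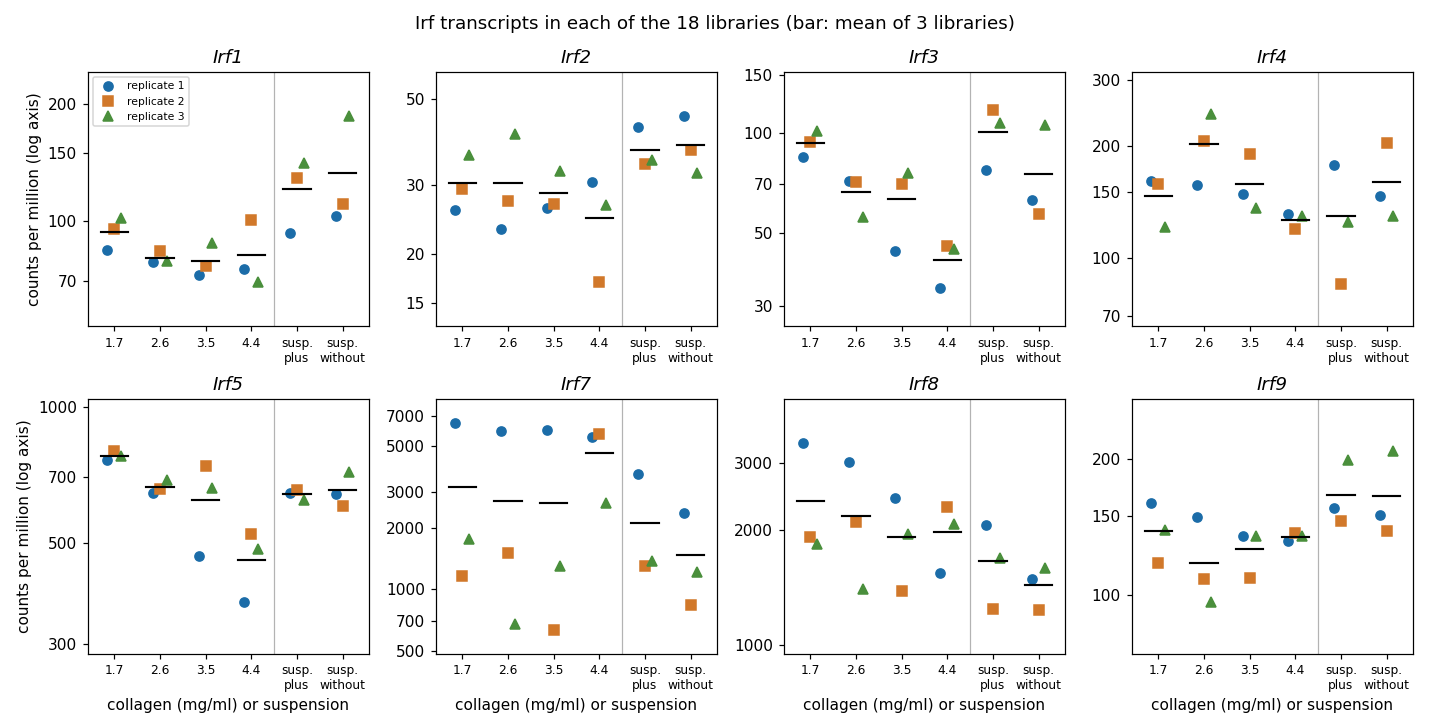
Level in CPM (log axis) of each Irf gene in the 18 libraries, by collagen density in mg/ml and by suspension group as titled, with circles, squares, and triangles for replicates 1, 2, and 3 and a bar for the mean of 3. Irf3 and Irf5 are lowest at 4.4 mg/ml, Irf1 is higher in most suspension libraries, and Irf7 is higher in the libraries of replicate 1 than in most others.

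Irf3 (ENSMUSG00000003184, GRCm38 chr7:44997648-45002848, plus strand) encodes the factor that TBK1 phosphorylates below TLR4 and TRIF and that drives the first wave of interferon-β. With the block it fell as the gel became denser. The 1.7 mg/ml libraries held 84.5, 94.0, and 101.8 CPM in replicates 1, 2, and 3. At 2.6 mg/ml the values were 71.7, 71.4, and 55.8 CPM, and at 3.5 mg/ml they were 43.9, 70.4, and 76.0 CPM. The 4.4 mg/ml libraries held 33.9, 45.5, and 44.7 CPM, all below the 6 suspension libraries. Those held 77.6, 118.0, and 107.6 CPM as titled plus CCL19 and 62.8, 57.1, and 105.7 CPM as titled without CCL19. The loosest gel therefore lay within the range of suspension, and 1 library at 3.5 mg/ml overlapped those at 4.4 mg/ml.

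At 4.4 mg/ml, Irf3 was 0.475 times its level in suspension, a log2 fold change of -1.08 ± 0.26 (SE, adjusted p = 0.0175 in edgeR, n = 3 against 6 libraries). With the block the log2 change was -1.07 ± 0.22 (edgeR, adjusted p = 0.00254), and it passed without any single replicate (0.0232 to 0.0522), whereas the unblocked fit lost the call without replicate 2 (0.216) or replicate 3 (0.115). Within replicates 1, 2, and 3 it was -1.04, -0.85, and -1.25 on the log2 scale. Against 1.7 mg/ml, Irf3 was lower in 3 of 3 replicates, by log2 differences of -1.31, -1.04, and -1.19, and this passed with the block (-1.18 ± 0.25, edgeR, adjusted p = 0.038) but not without it (-1.18 ± 0.29, adjusted p = 0.293) nor, in the blocked fit, without the replicate 2 library at 4.4 mg/ml (adjusted p = 0.108), replicate 1 (0.255), or replicate 2 (0.372). The trend with the block was -0.41 ± 0.09 log2 units per mg/ml (edgeR, adjusted p = 0.0567, against 0.356 without it), and this call was lost without the replicate 2 library at 4.4 mg/ml (0.115), without replicate 1 (0.327), and without replicate 2 (0.414). Over all collagen, the log2 change from suspension was -0.46 ± 0.17 (edgeR, adjusted p = 0.0935), and the exact permutation test of log2 CPM gave an unadjusted p = 0.0897 (two-sided, 12 against 6 libraries). That call was lost with DESeq2's size factors (edgeR, adjusted p = 0.129) and with GC and length offsets (adjusted p = 0.471), in the unfiltered fit (0.256), and in every unblocked fit that left out a replicate (0.221 to 0.387). With the block, the collagen call (-0.44 ± 0.15, adjusted p = 0.0346) was lost without replicate 1 (0.162) or replicate 3 (0.225). It was also lost when GC and length offsets were added to the block. The eosinophil markers had an r of 0.59 with Irf3 over the 18 libraries after the replicate means were subtracted. After the same subtraction, r with Irf3 was 0.63 for the neutrophil markers and -0.63 for the plasmacytoid DC markers. The part of these marker sets in the result was not tested. Irf3 overlaps Bcl2l12 on the other strand, which had a median of 1.69 CPM.

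Irf5 (ENSMUSG00000029771, chr6:29526625-29541871, plus strand) drives inflammatory cytokine genes below Toll-like receptors and MyD88, and its levels followed a like order. It held 762, 800, and 781 CPM at 1.7 mg/ml and 647, 659, and 689 CPM at 2.6 mg/ml. At 3.5 mg/ml replicate 1 was at 469 CPM and the others at 740 and 663 CPM. At 4.4 mg/ml the values were 371, 523, and 486 CPM. Suspension lay between 604 and 719 CPM in all 6 libraries, with a median of 643 CPM. The densest gel thus did not overlap suspension or the loosest gel, and the loosest gel lay above all suspension libraries.

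Irf5 was 0.704 times its suspension level at 4.4 mg/ml with the block (log2 change -0.51 ± 0.19, edgeR, adjusted p = 0.0581), and the fit without it gave -0.49 ± 0.21 (adjusted p = 0.149). The blocked call was lost whichever replicate was left out, with adjusted p = 0.542, 0.123, and 0.174 in edgeR without replicates 1, 2, and 3. Between 4.4 and 1.7 mg/ml it was lower in 3 of 3 replicates, by -1.04, -0.61, and -0.68 on the log2 scale, yet edgeR gave adjusted p = 0.42 without the block and 0.102 with it. DESeq2 called Irf5 and Irf3 lower in both the trend and this comparison. Because the loosest gel lay above suspension and the densest below it, the mean of all collagen gels differed from suspension by -0.06 ± 0.14 log2 units (edgeR, adjusted p = 0.826). Over the 18 libraries, which share batches, Irf3 and Irf5 had a Pearson r of 0.79 on log2 CPM after the mean of each replicate number was subtracted.

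Irf7 (ENSMUSG00000025498, chr7:141262706-141266481, minus strand) encodes the factor that amplifies interferon-α production and is itself raised by ISGF3. Its level differed between replicates. In replicate 1 it held 6497, 5952, 6015, and 5554 CPM from the loosest to the densest gel, and 3668 and 2365 CPM in suspension titled plus and without CCL19. In replicate 2 the collagen values were 1158, 1506, 634, and 5705 CPM in the same order, and the suspension values were 1303 and 844 CPM. In replicate 3 they were 1769, 678, 1300, and 2642 CPM in collagen and 1372 and 1222 CPM in suspension. Replicate 1 was thus high in every gel, while in replicates 2 and 3 the densest gel was the highest library of its batch.

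Against suspension, Irf7 at 4.4 mg/ml was higher in 3 of 3 replicates, by 0.92, 2.44, and 1.03 on the log2 scale. With the block it was 3.09 times the suspension level (log2 change 1.63 ± 0.38, edgeR, adjusted p = 0.00528). Without the block the log2 change was 1.39 ± 0.72 and was not called (edgeR, adjusted p = 0.242). The call with the block rests on the replicate 2 library at 4.4 mg/ml: without it, a fit added once the values were known, the log2 change for Irf7 was 0.88 ± 0.37 (edgeR, adjusted p = 0.109). Without that library the log2 change of Irf7 over all collagen also dropped, from 0.67 ± 0.29 (edgeR with the block, adjusted p = 0.089) to 0.48 ± 0.24 (adjusted p = 0.149). Without the filter on low counts, the unblocked fit called Irf7 higher in collagen (log2 change 0.82, edgeR, adjusted p = 0.0424) and at 4.4 mg/ml (1.31, 0.00838). Between 4.4 and 1.7 mg/ml the replicates gave log2 differences in Irf7 of -0.23, 2.3, and 0.58, and the comparison was not called (edgeR with the block, adjusted p = 0.307). Irf7 overlaps Phrf1 on the other strand, which was at a median of 68.0 CPM and changed the other way at 4.4 mg/ml (log2 change -0.78, edgeR with the block, adjusted p = 0.0152).

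Irf1 (ENSMUSG00000018899, chr11:53770014-53778374, plus strand) encodes an activator of guanylate-binding proteins, antigen-processing genes, and Il15. It was lower in all gels. Collagen libraries held 84.4, 95.6, and 101.8 CPM at 1.7 mg/ml and 78.3, 83.4, and 78.8 CPM at 2.6 mg/ml. They held 72.6, 76.3, and 87.5 CPM at 3.5 mg/ml and 75.03, 100.5, and 69.7 CPM at 4.4 mg/ml. Suspension held 92.9, 129.3, and 140.8 CPM as titled plus CCL19 and 103.2, 110.4, and 186.3 CPM as titled without it. Within each replicate, all 4 gels lay below both suspension libraries, although 3 collagen libraries exceeded the lowest suspension library of another replicate.

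Irf1 was 0.657 times its suspension level over all collagen (log2 change -0.61 ± 0.16, edgeR, adjusted p = 0.0189), and the log2 change was -0.58 ± 0.14 with the block (adjusted p = 0.00481). The exact permutation test of log2 CPM, which ignored the replicate numbers, gave an unadjusted p = 0.000377 (two-sided, 18564 arrangements of 12 against 6 libraries). The log2 difference was -0.34, -0.43, and -0.95 in replicates 1, 2, and 3. Without replicate 3 the change of Irf1 was -0.39 in edgeR with the block (adjusted p = 0.103) and -0.39 without it (0.21), and without replicate 2 the unblocked fit gave -0.69 (0.167). By density with the block, the log2 change of Irf1 from the loosest to the densest gel was -0.42 (edgeR, adjusted p = 0.324), -0.64 (0.044), -0.67 (0.0434), and -0.61 (0.0383), each with an SE of 0.2. The blocked calls at 2.6 and 3.5 mg/ml were lost without any one replicate (edgeR, adjusted p from 0.114 to 0.342), and that at 4.4 mg/ml without replicate 1 (0.201) or 3 (0.358). The trend of Irf1 within collagen was -0.07 ± 0.08 log2 units per mg/ml with the block and was not called (edgeR, adjusted p = 0.776). Irf1 varied with the eosinophil markers over the 18 libraries (r of 0.87 on log2 CPM with the mean of 9 markers, 0.9 after the replicate means were subtracted). Its r with the basophil and mast cell markers was 0.51, and 0.72 after that subtraction. With the plasmacytoid DC markers, the r of Irf1 was -0.63, and -0.62 after it. The part of these marker sets in the result was not tested.

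Irf9 and Irf2 were lower in collagen with the block alone. Irf9 (ENSMUSG00000002325, chr14:55603571-55610030, plus strand), the DNA-binding subunit of ISGF3, ranged from 96.4 to 160 CPM with a median of 135 CPM in 12 collagen libraries and from 139 to 209 CPM with a median of 153 CPM in 6 suspension libraries. Its log2 change in collagen was -0.36 ± 0.13 with the block (edgeR, adjusted p = 0.0563) and -0.37 ± 0.15 without it (0.121), and the exact permutation p was 0.0042. The blocked call for Irf9 was lost when GC and length offsets were added. The log2 differences of Irf9 in replicates 1, 2, and 3 were -0.09, -0.27, and -0.7, and the blocked call was lost without replicate 1 (adjusted p = 0.148), 2 (0.171), or 3 (0.456). The eosinophil markers had an r of 0.82 with Irf9 after the replicate means were subtracted, and their median log2 difference was -1.73, -2.63, and -4.46 in the same order. After the same subtraction, r with Irf9 was 0.68 for the DC markers and 0.64 for the basophil and mast cell markers. It was 0.55 for the B cell markers and -0.47 for the plasmacytoid DC markers. The part of these marker sets in the result was not tested. Irf9 lies on the same strand as Rnf31, which overlaps it and had a log2 change of -0.48 in collagen (edgeR with the block, adjusted p = 0.0349), so how reads in the overlap were assigned could move Irf9.

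Irf2 (ENSMUSG00000031627, chr8:46739732-46847458, plus strand), which competes with IRF1, ranged from 16.99 to 40.6 CPM with a median of 27.1 CPM in collagen and from 32.3 to 45.1 CPM with a median of 35.9 CPM in suspension. Its log2 change in collagen was -0.41 ± 0.16 with the block (edgeR, adjusted p = 0.0621) and -0.4 ± 0.17 without it (0.134), with an exact permutation p of 0.0084. It was -0.73 and -0.53 in replicates 1 and 2 and 0.0 in replicate 3, and the blocked call for Irf2 was lost without replicate 1 (edgeR, adjusted p = 0.501) or replicate 2 (0.251). Its lowest library, 16.99 CPM, was the replicate 2 gel of 4.4 mg/ml in which Irf7 was at 5705 CPM. At 4.4 mg/ml the log2 change of Irf2 was -0.62 ± 0.23 with the block (edgeR, adjusted p = 0.0627) and -0.44 ± 0.25 without that library (0.246).

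Of the lineage factors, Irf8 was called in collagen with the block and Irf4 in no comparison of either main fit. Irf8 (ENSMUSG00000041515, chr8:120736358-120756694, plus strand), which is needed for the conventional DC subset that cross-presents antigen, held 3389, 1918, and 1833 CPM at 1.7 mg/ml. It held 3011, 2099, and 1402 CPM at 2.6 mg/ml, 2427, 1386, and 1951 CPM at 3.5 mg/ml, and 1545, 2295, and 2071 CPM at 4.4 mg/ml. In suspension Irf8 lay between 1232 and 2058 CPM, within the range of collagen from 1386 to 3389 CPM for 4 of the 6 libraries. With the block Irf8 was 1.36 times its suspension level in collagen (log2 change 0.44 ± 0.18, edgeR, adjusted p = 0.083, against 0.193 without the block), and the exact permutation p was 0.0364. Without the replicate 2 library at 4.4 mg/ml the change was 0.38 ± 0.17 (edgeR with the block, adjusted p = 0.104), and the blocked call for Irf8 was also lost without replicate 1 (0.282) or replicate 2 (0.35). GC and length offsets without the block called Irf8 higher, at 0.69 ± 0.21 (edgeR, adjusted p = 0.0419).

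Irf4 (ENSMUSG00000021356, chr13:30749226-30766976, plus strand), which favors the conventional DC subset that primes helper T cells, ranged from 119 to 243 CPM in collagen and from 85.3 to 204 CPM in suspension. The log2 change over all collagen was 0.12 ± 0.18 (edgeR, adjusted p = 0.72), and the largest single-density value, at 2.6 mg/ml, was 0.49 ± 0.25 (adjusted p = 0.285). The exact permutation p for Irf4 was 0.419. No density moved it past the threshold in edgeR with or without the block.

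**Figure D3:**
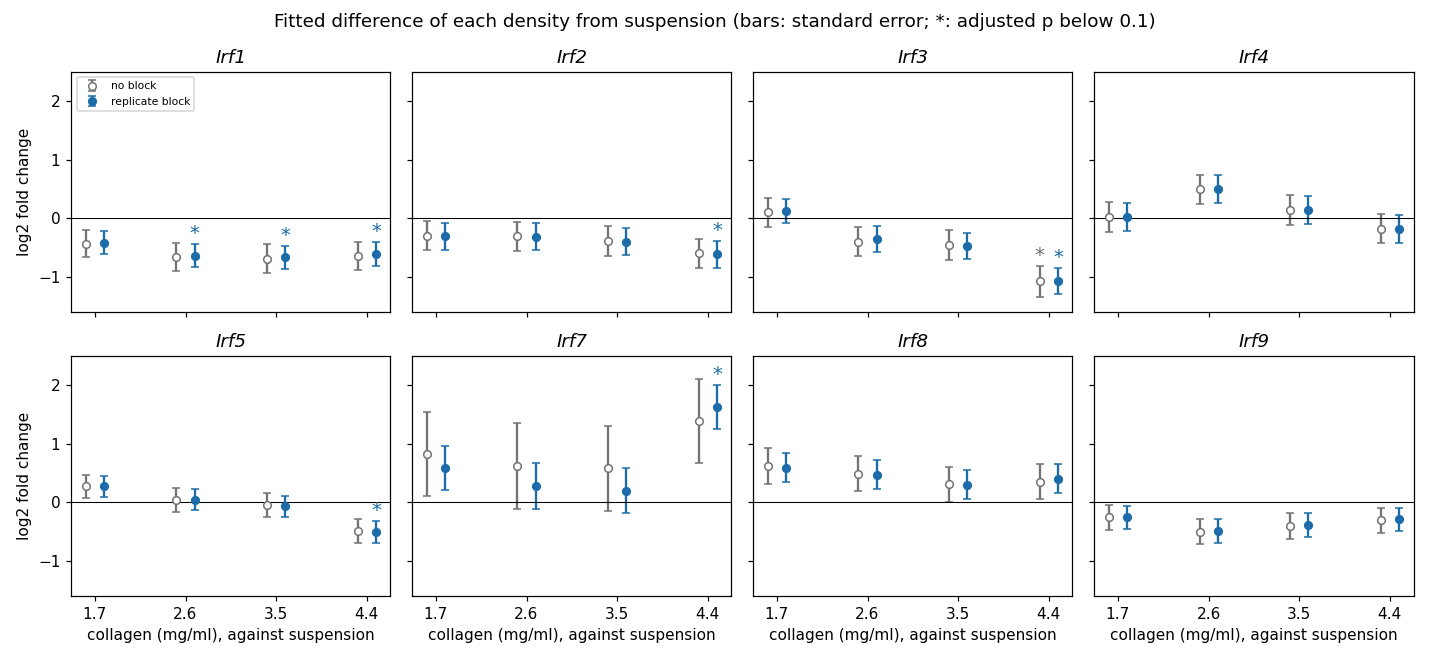
Log2 fold change of each Irf gene at each collagen density (mg/ml) against the mean of the suspension groups, from edgeR without (open, gray) and with (filled, blue) the replicate block, with standard errors and asterisks where the adjusted p was below 0.1. Irf1 is below 0 at all 4 densities, Irf3 passes from 0.1 at 1.7 mg/ml to -1.08 at 4.4 mg/ml without the block, and the block narrows the error of Irf7.

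The genes that the factors control were examined next. Most ISGF3 and IRF7 targets (20 antiviral genes, all tested) were not called in collagen as a whole, and those called were higher. Of the 20, 2 were higher and 0 lower in the unblocked fit (7.78% and 12.4% of all genes), and 5 were higher and 0 lower in the blocked fit (15.6% and 19.3%). The 2 were Isg15, a ubiquitin-like modifier, at a log2 change of 1.13 ± 0.31 (edgeR, adjusted p = 0.0242) and Mx1, a dynamin-like antiviral GTPase, at 0.99 ± 0.22 (0.0091). At 4.4 mg/ml, 4 of 20 were higher without the block and 17 of 20 with it, against 6.55% and 15.8% of all genes, and 0 were lower in either fit. The median log2 change with the block was 1.46, where the median of all genes tested was 0.02.

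Within replicates 1, 2, and 3, the median log2 difference of the ISGF3 and IRF7 targets between 4.4 mg/ml and suspension was 1.16, 1.62, and 1.18, and 17 of the 20 genes were higher in 3 of 3 replicates. Mx2 changed by 2.46 ± 0.28 on the log2 scale (edgeR with the block, adjusted p = 3.08e-05), Rsad2, which encodes viperin, by 2.39 ± 0.43 (0.000741), and Cxcl10, a chemokine for T cells, by 2.2 ± 0.46 (0.00245). Ifit1 (0.13 ± 0.41, adjusted p = 0.839), Ifit2 (1.05 ± 0.47, adjusted p = 0.112), and Rtp4 (-0.13 ± 0.3, adjusted p = 0.788) were not called. Without the replicate 2 library at 4.4 mg/ml, 14 of the 20 targets were called higher with the block and the median was 1.02. Leaving out a whole replicate gave 14 to 16 with the block and 1 to 14 without it. Shares of all genes called were not worked out for fits that left out a library or a replicate. In the trend within collagen, 9 of 20 rose with density with the block (1.45% of all genes had a trend), 3 did so without that library, and 0 without replicate 1 or replicate 2. At 1.7 mg/ml the median difference within replicates 1, 2, and 3 was 0.26, -0.44, and 0.33, on both sides of 0.

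**Figure D4:**
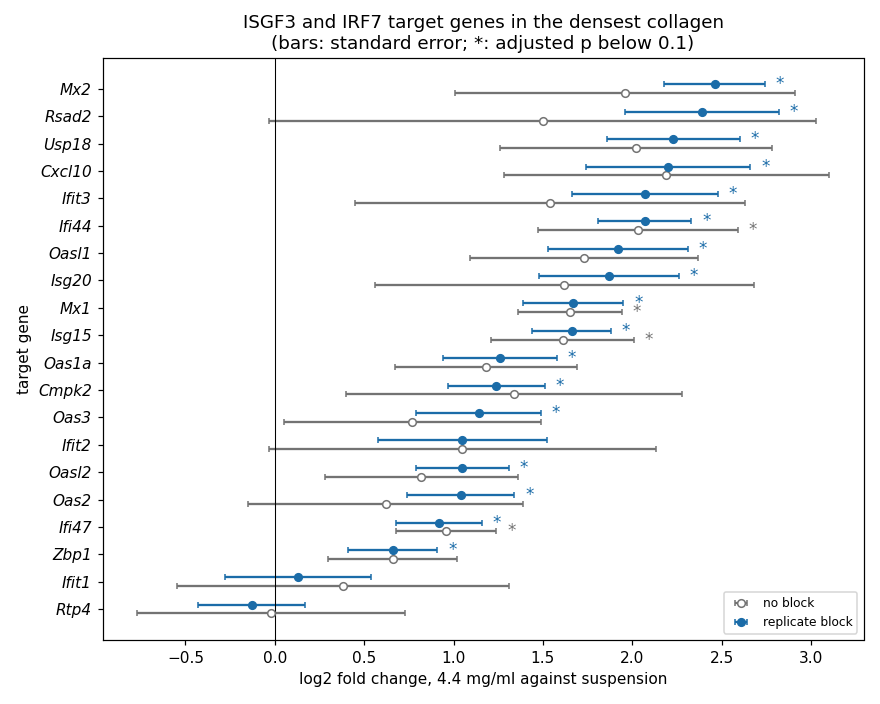
Log2 fold change at 4.4 mg/ml against suspension for 20 genes that ISGF3 and IRF7 control, from edgeR without (open, gray) and with (filled, blue) the replicate block, with standard errors and asterisks where the adjusted p was below 0.1. With the block 17 genes pass, led by Mx2 at 2.46, while Ifit1 and Rtp4 lie near 0.

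Like Irf7, the ISGF3 and IRF7 targets were set apart by replicate, with means of 5.89 to 7.04 log2 CPM in the 6 libraries of replicate 1, 3.83 to 6.01 in replicate 2, and 4.03 to 5.39 in replicate 3. Across the 18 libraries, Irf7 and the mean of the targets had a Pearson r of 0.9 as measured and 0.77 after the replicate means were subtracted. After subtraction, the r with these targets was -0.77 for Irf5, -0.75 for Irf3, and -0.59 for Irf2. It was -0.26 for Irf1, -0.25 for Irf4, -0.04 for Irf9, and 0.22 for Irf8. The macrophage and monocyte markers moved with Irf7 too. Their mean had an r of 0.91 with Irf7 as measured and 0.89 after subtraction. These 10 markers summed to 2280 to 4041 CPM in replicate 1, 743 to 3542 CPM in replicate 2, and 606 to 1261 CPM in replicate 3, and at 4.4 mg/ml 6 of 10 were higher than in suspension with the block and 0 without it, against 15.8% and 6.55% of all genes. Siglech, which defines plasmacytoid DCs, the main interferon-α producers, was at 0 in 16 of 18 libraries and reached at most 4 counts. Of the 8 plasmacytoid markers listed, 7 had a row, and these summed to 457 to 2900 CPM in collagen, 444 to 1238 CPM in suspension, and 928 to 2900 CPM in replicate 1. Most of this came from Bst2, itself an interferon-induced gene, with a mean of 1310 CPM in collagen and a log2 change of 1.5 at 4.4 mg/ml (edgeR with the block, adjusted p = 0.00402), and 1 of the 5 tested was called there. The mean of the 5 had an r of 0.67 with Irf7 as measured and 0.47 after subtraction. For the DC markers, r with Irf7 was -0.04 as measured and 0.67 after subtraction. The part of these cells in the Irf7 result was not tested.

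**Figure D5:**
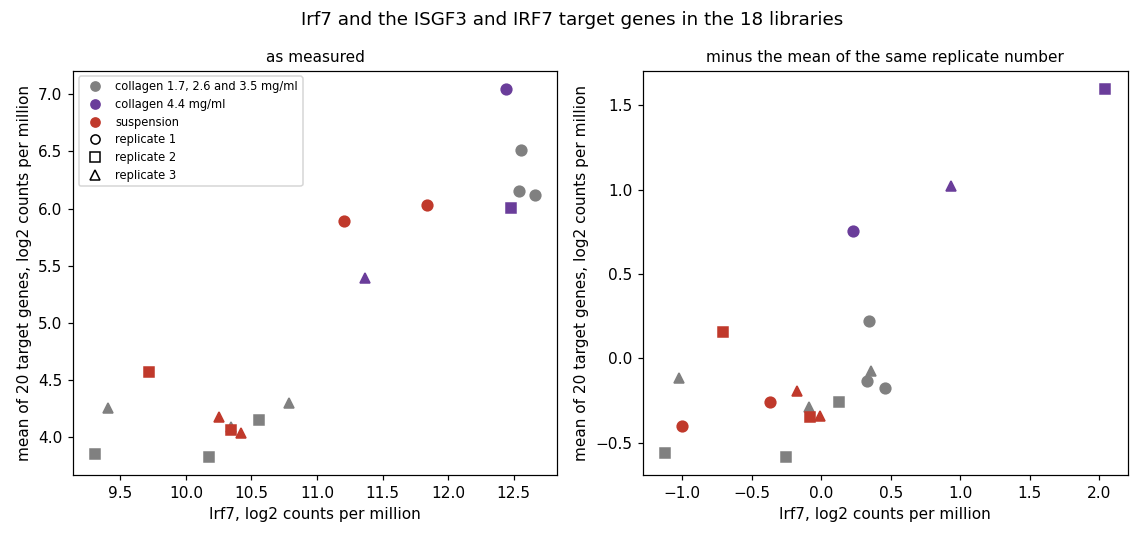
Irf7 against the mean of 20 ISGF3 and IRF7 target genes, both in log2 CPM, in the 18 libraries as measured (left) and after subtraction of the mean of each replicate number (right). Replicate 1 (circles) has target means of 5.89 or more in the left panel, where 1 library of replicate 2 joins it at 6.01, and on the right the 3 libraries at 4.4 mg/ml (purple) have the highest target means.

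Interferon transcripts were at or near the limit of detection. Of 10 interferon genes on the list, 5 had a row, and of those only Ifnb1 passed the filter, at 0 to 0.811 CPM in suspension and 0.268 ± 0.317 CPM in collagen (mean ± SD, n = 12). Its log2 change at 4.4 mg/ml was 0.48 ± 1.09 with the block (edgeR, adjusted p = 0.779). Ifna2, Ifna4, Ifna5, and Ifnk held at most 6 counts in any library. The summed level of these 5 genes was 0.617 to 1.14 CPM in the 6 libraries of replicate 1, 0.0 to 0.228 CPM in replicate 2, and 0.0 to 0.408 CPM in replicate 3, so all libraries of replicate 1 lay above those of the other replicates. A difference between gel and suspension was not detectable at these counts.

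Upstream of the factors, the sensors, adaptors, and kinases that activate IRFs moved in both directions. Of 24 genes, 4 were higher and 5 lower in collagen without the block, where 7.78% of all genes were higher and 12.4% lower. With the block 11 were higher and 6 lower, where the shares of all genes were 15.6% and 19.3%. Tlr9, the receptor for unmethylated DNA, fell the furthest among those named by rule, from 39.2 ± 20.4 CPM in suspension to 9.5 ± 5.61 CPM in collagen (mean ± SD, log2 change -2.16 ± 0.33, edgeR, adjusted p = 0.00101). Ticam2, the adaptor that links TLR4 to TRIF and IRF3, was lower by a log2 change of -1.19 ± 0.22 (0.00272), and Tlr7, a receptor for single-stranded RNA, was higher at 1.15 ± 0.35 (0.04). Tbk1, the kinase of IRF3, had a log2 change of 0.61 ± 0.23 with the block (edgeR, adjusted p = 0.0563) and 0.59 ± 0.24 without it (0.111). The median log2 change of the 24 genes without the block was 0.34, against 0.0 over all genes.

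Of the 10 interferon receptors, JAKs, and STATs, 0 were higher and 2 lower in collagen without the block, and 2 were higher and 3 lower with it, near the same background shares (7.78% and 12.4%, then 15.6% and 19.3%). Tyk2, the kinase bound to IFNAR1, was at 196 ± 35.1 CPM in collagen and 394 ± 117 CPM in suspension (log2 change -1.01 ± 0.19, edgeR, adjusted p = 0.003). Stat2, which encodes a partner of IRF9, had a log2 change of -0.37 ± 0.14 with the block (edgeR, adjusted p = 0.0534, against 0.184 without it).

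Of 14 partners and co-repressors of IRFs, 2 were higher and 2 lower in collagen without the block (background 7.78% and 12.4%), and 5 were higher and 2 lower with it (15.6% and 19.3%). Spib, which encodes an ETS factor that pairs with IRF4 and IRF8, was lower with a log2 change of -0.94 ± 0.26 (edgeR, adjusted p = 0.0267), and Tcf3, which encodes the E proteins E12 and E47, was lower at -0.68 ± 0.16 (0.0117). Klf4, a zinc finger factor of monocytes and DCs, was higher, at 25.4 ± 29.2 CPM in collagen and 5.9 ± 5.58 CPM in suspension (log2 change 1.75 ± 0.62, adjusted p = 0.0714).

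Most of the 22 listed target genes of IRF1 and interferon-γ were not called. In collagen without the block 1 was higher and 2 lower, and 2 and 4 with it, at or below the background shares of 7.78% and 12.4% and of 15.6% and 19.3%, and the median log2 change was 0.01 and 0.05 in these fits. Il15, a cytokine that sustains memory T cells and NK cells, was higher at a log2 change of 1.33 ± 0.23 (edgeR, adjusted p = 0.00205). Ciita, which encodes the master regulator of class II genes, was lower at -1.03 ± 0.21 (0.00492), and Gbp7, a guanylate-binding protein gene, was lower at -1.13 ± 0.42 (0.0829). At 4.4 mg/ml with the block 5 of the 22 were higher and 1 was lower, against 15.8% and 16.2% of all genes.

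For the lineage factors, 12 of 16 IRF4 and IRF8 targets in DCs were tested, and 2 were higher and 2 lower in collagen in both fits, against 7.78% and 12.4% of all genes without the block and 15.6% and 19.3% with it. Pdcd1lg2, which encodes the checkpoint ligand PD-L2, was higher at a log2 change of 0.77 ± 0.22 (edgeR, adjusted p = 0.0277), as was Xcr1, a receptor of cross-presenting DCs, at 1.15 ± 0.41 (0.074) from a mean of 1.78 CPM in suspension. Wdfy4, which is needed for cross-presentation, was lower at -0.92 ± 0.18 (0.00339). Clec9a, Cadm1, Cd209a, and Il4i1 stayed below the filter, with at most 21 counts in any library.

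Of 12 negative regulators of interferon signalling, 3 were higher and 1 lower in collagen without the block (background 7.78% and 12.4%), and 4 were higher and 2 lower with it (15.6% and 19.3%). Ptpn2, a phosphatase of JAKs and STATs, had a log2 change of 0.68 ± 0.24 (edgeR, adjusted p = 0.074) and Pias1, a SUMO ligase that restrains interferon signalling, of 0.65 ± 0.14 (0.00634). Trim21, an antibody receptor in the cytosol that also acts on IRFs as a ubiquitin ligase, was lower at -0.94 ± 0.26 (0.0275).

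Members differed in the genes whose pattern was most like their own over the 18 libraries, ranked by Pearson r of log2 CPM after each replicate mean was subtracted. Irf7 varied most closely with H2-T22 (r of 0.97) and Oas1g (0.95), and Irf1 with Hsh2d (0.96) and Haus8 (0.95). For Irf3 the nearest were Fzr1 and H2afx (0.95 each), for Irf5 Vps26c (0.92) and Nploc4 (0.89), and for Irf9 Tm9sf4 and Arpin (0.95 each). Irf2 was nearest to Nt5e (0.95) and Atg4c (0.94), and Irf4 to Hipk2 and Eif4enif1 (0.91 each). Irf8 had the loosest neighbours, Ndfip1 (0.85) and Nfkbib (0.84). Among the members themselves, Irf1 and Irf9 had an r of 0.86, Irf7 and Irf8 of 0.67, and Irf2 and Irf7 of -0.8, with libraries that share a batch and 3 replicates a group.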

How the data were processed

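RNA was measured in 18 libraries (TruSeq stranded mRNA, single-end reads). The authors aligned reads with STAR 2.7.0f to GRCm38 and deposited raw counts for each Ensembl gene, with no scaling. RSEM gave the study's TPM values, which were not used here. The tool behind the deposited counts, its use of strand, and its handling of reads shared by genes are not given in the sources used here. Groups and replicate numbers come from the labels. Symbols, loci, and exon lengths come from GENCODE for GRCm38. The members, gene lists, and tests were chosen with earlier results of these data known.

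From the deposited counts, edgeR 4.0.16 in R 4.3.3 (filterByExpr, TMM, quasi-likelihood F-test, FDR 0.1) fitted all 18 libraries once. CPM used TMM-scaled library sizes, and log2 CPM a prior count of 2. An SE is the log2 change divided by the root of F. The study's methods name DESeq2, which was run as an alternative (1.42.0). Alternatives were the replicate block, DESeq2 with and without it, its size factors, no filter, an FDR of 0.05, each replicate left out, and GC and length offsets (loess, span 0.5) with and without the block. Leaving out the 4.4 mg/ml replicate 2 library, and each replicate with the block, were added after seeing the data. Replicate numbers pair the libraries because labels give a shared date and lane. Deviations from group means had a mean r of 0.434 across genes between libraries of the same number and -0.214 between others. The second value is largely set by the first, because the deviations of the 3 libraries of a group sum to 0. Biological variation (BCV) was 49% without and 33.1% with the block. Permutation tests were exact and two-sided, over all arrangements of 12 against 6 libraries. They ignored the pairing by replicate number, and their p-values were not adjusted for the number of genes. The fit without the block was run on counts simulated with no replicate effect, for collagen against suspension. That simulation did not test the blocked fit. Nothing in the labels says that replicates are separate mice, so p-values measure the spread between these libraries. Floors cover counting error only. From each pathway list, up to 3 genes called without the block, with the same sign in 3 of 3 replicates, were named by rule, largest change first, and for each member the 2 genes of most similar pattern. Tbk1, Stat2, and the targets named at 4.4 mg/ml other than Isg15 and Mx1 were chosen after their values were seen, as were Ifnb1, Bst2, and the genes below the filter. Protein sequences were not used here.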

Additional observations from a re-analysis of the deposited data

How the results depend on the processing

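The replicate block raised the number of members called, and it raised the share of all genes called too. In collagen against suspension that share went from 12.4% to 19.3% lower and from 7.78% to 15.6% higher. Shares of all genes were worked out for edgeR with and without the block and for some DESeq2 comparisons without it. Counts from the other fits below have no such share beside them. Of the 8 members, edgeR without the block called 2 in collagen against suspension, 1 at 4.4 mg/ml, and 0 in the other comparisons. With the replicate block the counts were 6 and 5, 1 for each middle density (2.6 and 3.5 mg/ml), 1 in the trend, 1 between its ends (4.4 and 1.7 mg/ml), and 3 in the test for any difference. DESeq2 gave 1 in collagen, 2 in the trend and between the ends, 1 for each middle density, and 1 for any difference. With the block DESeq2 gave 6 in collagen, 2 in the trend and between the ends, 1 for each middle density, 5 at 4.4 mg/ml, and 4 for any difference. GC and length offsets with the block gave 4 in collagen, 2 in the trend and between the ends, from low to high density 1, 3, 1, and 6, and 3 for any difference. DESeq2's size factors or an FDR of 0.05 left 1 in collagen, and no filter gave 2 at 4.4 mg/ml. Leaving out replicates or the 4.4 mg/ml replicate 2 library, with or without the block, gave 0 to 4 called members in collagen, 0 to 3 at 4.4 mg/ml, 0 to 1 in both comparisons within collagen and at 3.5 mg/ml, and 0 to 2 for any difference and at 2.6 mg/ml. Some values changed sign, and not all of them were near 0 in every fit. The log2 change of Irf5 in collagen was 0.11 with GC and length offsets, 0.09 with the block as well, and -0.14 to 0.05 without a replicate. The trend of Irf8 was -0.2 to 0.08 without a replicate. The trend of Irf9 was 0.00016 with the replicate block, 0.0085 with DESeq2, 0.01 with DESeq2 and the block, 0.0084 with its size factors, 0.04 with GC and length offsets with or without the block, and -0.04 to 0.08 without a replicate. Between 4.4 and 1.7 mg/ml, without a replicate, Irf7 ranged from -0.02 (replicate 2 left out) to 1.58 and Irf8 from -0.54 to 0.27, and Irf9 was at 0.0075 with DESeq2 and the block, 0.02 with offsets, 0.03 with offsets and the block, and -0.17 to 0.14 without a replicate. The cause of these shifts was not tested.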
